A study of Mus musculus with 18 samples.

Results

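The 7 entries described here are the red cell microRNAs mmu-miR-451a, mmu-miR-144-3p, mmu-miR-144-5p, mmu-miR-486-5p and mmu-miR-486-3p, together with mmu-miR-3107-5p and mmu-miR-3107-3p, which are the near-identical form of miR-486 read from the opposite strand. They were taken by name from the 1251 mouse microRNA entries of the table. Small RNA was sequenced from 18 skin samples of SKH-1E Hairless mice, an outbred hairless strain that readily forms skin tumours under ultraviolet radiation. The 6 mice, numbered 2, 3, 7, 8, 9 and 10, were female littermates irradiated from young adulthood with solar simulators and killed shortly after irradiation had ended. Each gave 1 library of nonlesional chronically irradiated skin (CHR), 1 of papilloma (PAP) and 1 of cutaneous squamous cell carcinoma (cuSCC), so that n = 6 for every sample type and all groups, CHR included, shared the strain, the sex and the irradiation. Unirradiated skin was not analysed here, and each sample was a piece of bulk tissue in which vessels and blood were not separated from the other cells.

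Mature red cells carry no nucleus but keep a characteristic set of microRNAs from their precursors. miR-144 and miR-451 are cut from one erythroid transcript, and miR-451 is the known case of a microRNA that skips Dicer and is cut by Argonaute 2 instead. miR-486 is made in developing red cells from the gene of ankyrin-1, a protein of the red cell membrane skeleton, but skeletal muscle makes it too, so that its level in skin can have 2 sources. In tissue libraries these microRNAs are widely read as a sign of blood.

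The sequences of miR-451a and of both miR-144 arms are shown because these members can be told apart by sequence. RefSeq (GRCm38.p6) held a sequence for 3 of the 7 members, and the seed, bases 2 to 8, is in capitals.
miR-451a: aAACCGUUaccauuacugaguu
miR-144-3p: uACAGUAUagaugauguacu
miR-144-5p: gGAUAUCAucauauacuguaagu
The 3 seeds differ from each other, and none recurred in any other of the 1738 mature sequences of that table. The miR-451a hairpin lies at chr11:78073170-78073241 of GRCm38 on the plus strand, 99 bases after the end of the miR-144 hairpin at chr11:78073005-78073070, and apart from Mir451b, annotated on the opposite strand over the same span as Mir451a, no other gene is annotated around either. In the hairpin of miR-451a the capitals mark the mature microRNA, which covers bases 17 to 38 of 72 and so runs from one arm through the middle of the hairpin.
miR-451a hairpin: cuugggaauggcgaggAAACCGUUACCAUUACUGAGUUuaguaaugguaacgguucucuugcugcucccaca
The Mir486 hairpin lies at chr8:23142555-23142682 on the plus strand in an intron of Ank1, and Mir3107 at chr8:23142573-23142662 on the minus strand, inside the span of Mir486 and in an intron of the antisense gene Gm15816. miR-486-5p and miR-3107-5p held the same value in 18 of 18 libraries, and the 3p arms held the same value in 10 of 18 and differed by at most 0.24 in the others, so that miR-3107 is counted as the same measurement and is not an independent one. Values below are of miR-486 unless stated.

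The values are log2 ppm, an abundance scaled to the usable reads of the library, after quantile normalisation, so they give the place of a microRNA within its library, and a share of reads cannot be read from them. The lowest value of every library was 3.32, which is 10 ppm on the log2 scale, and entries at it are called not detected here. No value was above 18.47. Between 163 and 365 entries were detected per library, with a median of 281.5 in CHR, 206.5 in PAP and 301.5 in cuSCC. The lowest detected value varied from 3.32 to 6.83, and the depth of each single library is not known here. miR-205-5p, a microRNA of keratinocytes, stood at 17.87 ± 0.37 in CHR, 18.22 ± 0.39 in PAP and 18.08 ± 0.47 in cuSCC (SD, n = 6). The cuSCC library of mouse 10 was singled out with the values of the members known. Across the 293 entries tested it correlated at r = 0.923 to 0.947 with the PAP libraries and at 0.882 to 0.897 with the other cuSCC libraries. The same r was not computed for the other cuSCC libraries, so these values do not show that it was unusual. Results that rest on it are given with and without that mouse. Because of how it was chosen, p values without mouse 10 are descriptive.

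Of the 7 members, miR-144-3p was not detected in any of the 18 libraries. miR-144-5p was detected in 2 of 18, at 3.38 in the cuSCC of mouse 3 and 5.16 in the cuSCC of mouse 10, which was also the cuSCC library with the highest miR-451a. Both arms were therefore left out of the tests, and the other 5 members were tested. The neighbour miR-451b, read from the strand opposite miR-451a, was likewise at the lowest value in every library. The miR-144 arms hold few G and C bases, at most 30.4% of either arm against 36.4% of miR-451a. Among 73 entries with a GC content at or under 35%, 16.4% were detected in any library, against 35.9% of 928 entries above it, a division chosen after seeing the data. The part of base composition in the absence of miR-144 was not tested.

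**Figure D1:**
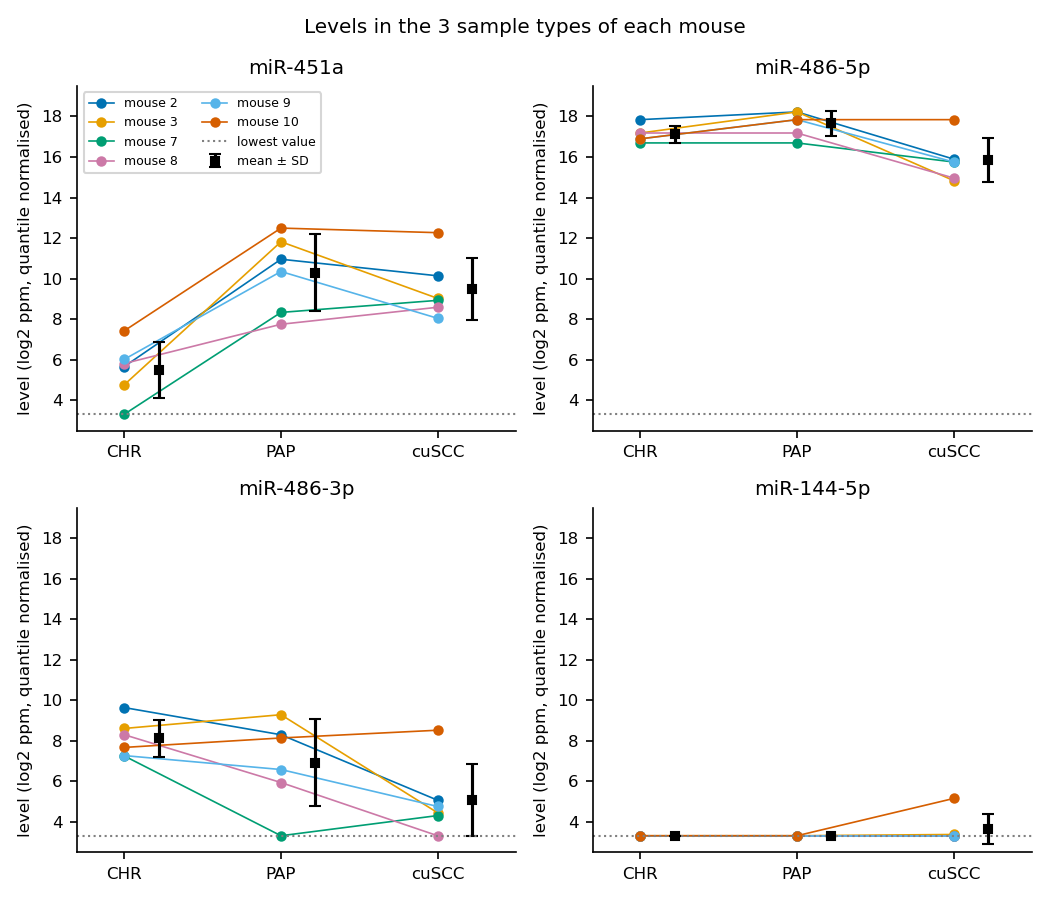
Levels of miR-451a, miR-486-5p, miR-486-3p and miR-144-5p (log2 ppm, quantile normalised) in CHR, PAP and cuSCC, with 1 line per mouse, squares for the mean ± SD (n = 6) and a dotted line at the lowest value of 3.32. miR-451a climbs from CHR to both lesions in every mouse, while miR-486-5p falls in the cuSCC of every mouse but mouse 10.

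miR-451a was the member that set the lesions apart from irradiated skin. In CHR it stood at 5.67, 4.78, 5.82, 6.03 and 7.44 in mice 2, 3, 8, 9 and 10 and was not detected in mouse 7, whose library had no detected value under 5.77. In PAP it stood at 10.96, 11.82, 8.34, 7.76, 10.36 and 12.50 in mice 2, 3, 7, 8, 9 and 10. In cuSCC the same mice gave 10.14, 9.03, 8.93, 8.59, 8.05 and 12.27. Every PAP and every cuSCC library therefore lay above every CHR library, which was the case for 6.48% of the 293 tested microRNAs in PAP and for 9.9% in cuSCC. Its place among the 1251 entries moved from a median rank of 195.5 in CHR to 71.5 in PAP and 101 in cuSCC.

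The mean of miR-451a was 5.51 ± 1.37 in CHR, 10.29 ± 1.89 in PAP and 9.50 ± 1.52 in cuSCC (SD, n = 6). PAP exceeded CHR by 4.78 on the log2 scale (SE 0.87, adjusted p = 0.00106 by limma), a 27.5-fold difference of the normalised values. The excess of cuSCC was 3.99 (SE 0.73, adjusted p = 0.000747 by limma), or 15.9-fold, and without mouse 10 it was 3.83 (adjusted p = 0.000206 by limma). By size these were the 5th and the 2nd largest differences among the 293 tested microRNAs. The step from CHR was upward in 6 of 6 mice for each lesion, from 1.93 to 7.05 in PAP and from 2.02 to 5.61 in cuSCC. Between the lesions the difference, cuSCC minus PAP, was -0.78 and within the spread (SE 0.90, adjusted p = 0.599 by limma), and 4 of 6 mice were lower in cuSCC. Because low CHR values carry the differences, their size depended on how those were read. With 100 ppm as the lowest value they shrank to 3.51 in PAP (limma adjusted p = 0.00389) and 2.73 in cuSCC (limma adjusted p = 0.00377). Both lesions were compared with the same CHR libraries, so the rises are not separate evidence, and in such bulk samples more red cells cannot be told apart from more of the microRNA per cell.

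**Figure D2:**
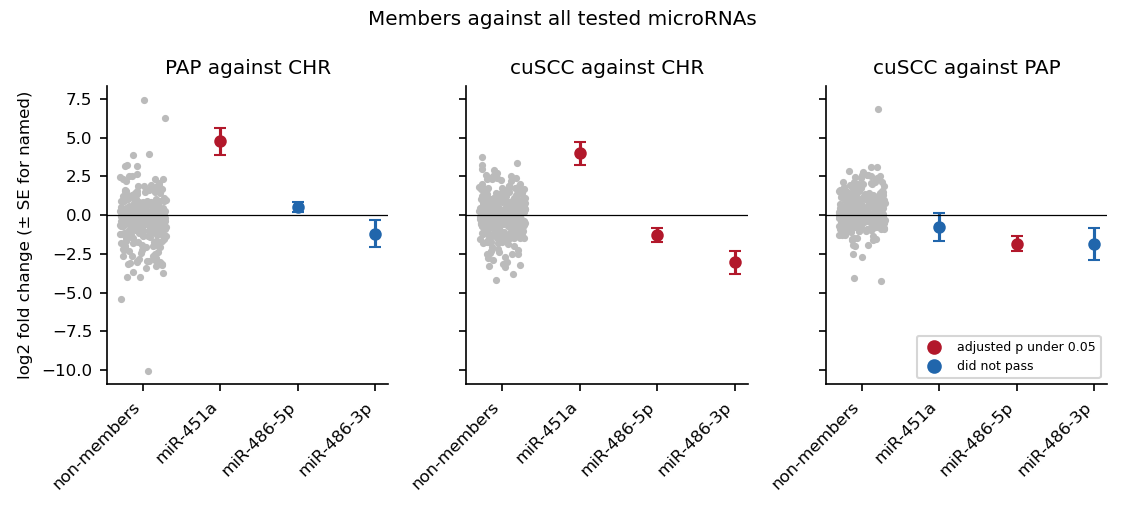
Log2 fold change of miR-451a, miR-486-5p and miR-486-3p (points with standard error) beside all tested non-members (grey points, spread sideways only for display) in each comparison. Red points have a limma adjusted p under 0.05 and blue points do not, and miR-451a lies near the upper end in both lesions against CHR while the miR-486 arms lie below 0 in cuSCC.

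miR-486-5p behaved otherwise. It was among the most abundant entries of irradiated skin, at 17.84, 17.18, 16.69, 17.18, 16.90 and 16.90 in the CHR of mice 2, 3, 7, 8, 9 and 10, which are ranks 2 to 6 of their libraries. PAP gave 18.22, 18.22, 16.69, 17.18, 17.84 and 17.84 in the same order of mice, with rank 1 in mice 2 and 3. In cuSCC it was 15.90, 14.84, 15.75, 14.96 and 15.75 in mice 2, 3, 7, 8 and 9, ranks 10 to 18, but 17.84 and rank 2 in mouse 10. CHR and PAP thus overlapped, and 5 of 6 cuSCC libraries lay below every CHR and every PAP library.

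The mean of miR-486-5p was 17.12 ± 0.40 in CHR, 17.67 ± 0.61 in PAP and 15.84 ± 1.08 in cuSCC (SD, n = 6). PAP differed from CHR by 0.55 (SE 0.32, adjusted p = 0.208 by limma), with 4 of 6 mice higher and 2 at the same value. A larger rise of so abundant an entry had little room to appear, as it lay 0.63 to 1.78 below the highest value of its library in CHR and was itself that highest value in the PAP of mice 2 and 3. The cuSCC libraries were lower than CHR, at -1.27 on the log2 scale (SE 0.44, adjusted p = 0.0325 by limma), and lower than PAP, at -1.83 (SE 0.49, adjusted p = 0.0394 by limma). Without mouse 10 the differences were -1.72 (limma adjusted p = 0.00135) and -2.19 (limma adjusted p = 0.00272). Without any other single mouse neither passed, at limma adjusted p = 0.0583 to 0.115 against CHR and 0.091 to 0.172 against PAP, with the direction kept in each. The exact permutation test, adjusted over all entries, did not pass either, at p = 0.0634 and 0.0945.

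The 3p arm of miR-486, the less abundant product of the hairpin, ran from 7.25 to 9.64 in CHR (median 7.99), from 3.32 to 9.29 in PAP (median 7.36) and from 3.32 to 8.52 in cuSCC (median 4.61). It was not detected in the PAP of mouse 7 and the cuSCC of mouse 8, and its highest cuSCC value was again that of mouse 10. It was lower in cuSCC than in CHR, with 5 of 6 libraries below every CHR library and a log2 difference of -3.05 (SE 0.72, adjusted p = 0.00468 by limma), or -3.83 without mouse 10 (adjusted p = 9.67e-05 by limma). With 100 ppm as the lowest value this was -1.17 and did not pass (limma adjusted p = 0.0623). Within the spread were PAP minus CHR at -1.20 (SE 0.86, adjusted p = 0.318 by limma) and cuSCC minus PAP at -1.86 (SE 1.03, adjusted p = 0.257 by limma). The latter was -2.26 and passed when each undetected value was raised to the lowest one detected in that library (limma adjusted p = 0.0351). The 5p arm exceeded the 3p arm by 8.99 ± 0.54 in CHR, 10.74 ± 1.58 in PAP and 10.77 ± 0.84 in cuSCC (log2 difference within a library, SD, n = 6). The copy miR-3107-3p gave -3.19 in cuSCC against CHR (adjusted p = 0.00333 by limma). With 100 ppm as the lowest value this copy gave -1.32 and passed (limma adjusted p = 0.0367), unlike miR-486-3p.

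Counted over the 5 tested members, 1 was higher in PAP than in CHR, where 14.0% of all tested microRNAs were higher. In cuSCC against CHR, 1 was higher and 4 were lower, where 20.1% and 22.2% of all tested microRNAs were. Between cuSCC and PAP, 2 were lower, where 2.39% were. The 4 lower entries are the 2 arms of miR-486 and their miR-3107 copies, and the 2 are miR-486-5p and its copy, so these counts stand for fewer measurements than they number. With the miR-3107 entries removed, the counts were 1, 3 and 1 of 3 tested members.

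The distance between miR-486-5p and miR-451a was read within each library. miR-486-5p exceeded miR-451a by 12.17, 12.41, 13.37, 11.36, 10.87 and 9.46 on the log2 scale in the CHR of mice 2, 3, 7, 8, 9 and 10. In PAP the excess was 7.26, 6.40, 8.35, 9.43, 7.48 and 5.34, and in cuSCC 5.75, 5.81, 6.82, 6.37, 7.70 and 5.57. No PAP or cuSCC library reached the lowest CHR value. The mean excess fell from 11.61 ± 1.36 in CHR to 7.38 ± 1.43 in PAP and 6.34 ± 0.81 in cuSCC (SD, n = 6). The changes were -4.23 and -5.27, and downward in 6 of 6 mice, and cuSCC differed from PAP by -1.04. They are given with no p, since in each mouse the rise of miR-451a, at least 1.93, was more than the 1.78 that was the largest room left above miR-486-5p in CHR, so that the excess had to fall. The cuSCC of mouse 10, in which both microRNAs were high, had the smallest excess of its group and did not stand apart in it.

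**Figure D3:**
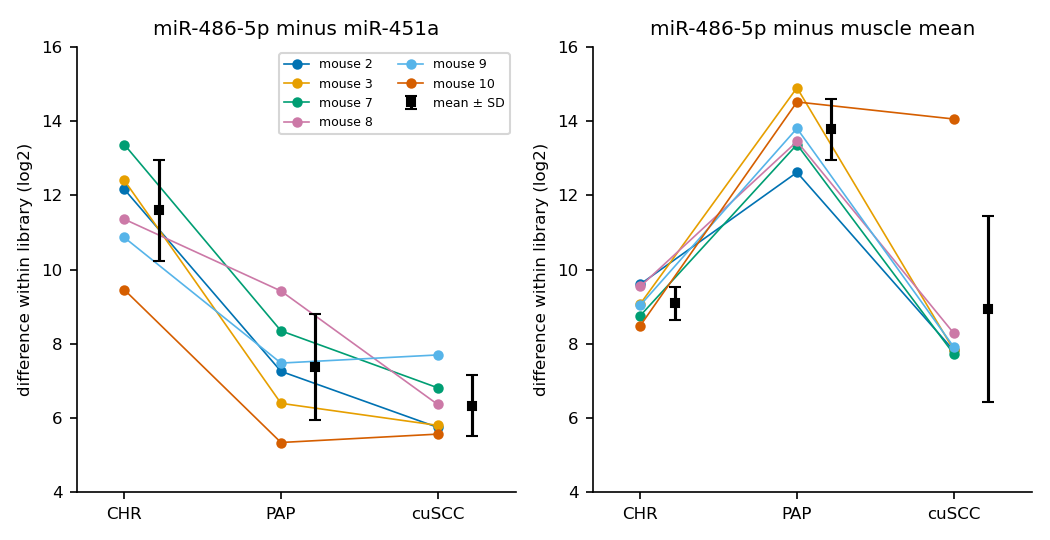
Log2 difference within each library between miR-486-5p and miR-451a (left) and between miR-486-5p and the mean of 4 skeletal muscle entries (right), with 1 line per mouse and squares for the mean ± SD (n = 6). The excess over miR-451a is lower in all PAP and cuSCC libraries than in any CHR library, and the cuSCC of mouse 10 at 14.06 lies with the PAP libraries on the right.

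Within a sample type the 2 microRNAs were compared library by library. In PAP, miR-451a and miR-486-5p correlated at Pearson's r = 0.822 (exact permutation p = 0.0611) and Spearman's rho = 0.677 (exact permutation p = 0.156). In cuSCC, r was 0.858 (exact permutation p = 0.0611) and rho 0.551 (exact permutation p = 0.272). Without the 2 libraries farthest from the median of miR-451a, r became -0.0211 in PAP and -0.457 in cuSCC, so these relations rest on those libraries. In CHR, r was 0.172 (exact permutation p = 0.717) and rho 0 (exact permutation p = 1). Adjusted over the 9 correlations computed, the lowest p of r was 0.275 and none passed.

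**Figure D4:**
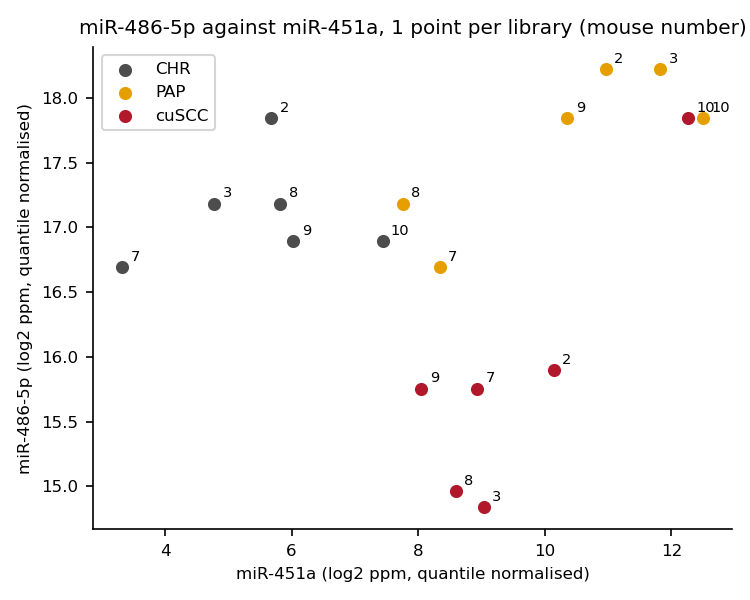
miR-486-5p against miR-451a, both in log2 ppm after quantile normalisation, 1 point per library with its mouse number. CHR libraries lie at low miR-451a and high miR-486-5p, PAP libraries at high values of both, and the cuSCC libraries other than that of mouse 10 at high miR-451a and lower miR-486-5p.

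The skeletal muscle microRNAs are given as well, because miR-486 is also a microRNA of muscle. Of the 13 listed entries, 4 were tested, miR-133a-3p, miR-133a-5p, miR-133b-3p and miR-206-3p, and 8 were never detected. miR-1a-3p, a defining microRNA of muscle, was detected in 1 of 18 libraries, at 3.47. miR-133a-3p lay between 15.44 and 15.98 in CHR. In PAP it was at the lowest value in mice 3, 7 and 10 and at 4.95, 6.17 and 12.44 in mice 8, 9 and 2. In cuSCC it was 13.55 to 14.22 in 5 mice, below every CHR library, and 5.16 in mouse 10. Its difference from CHR was -10.04 in PAP (adjusted p = 7.65e-05 by limma) and -3.22 in cuSCC (adjusted p = 0.0476 by limma), or -1.76 in cuSCC without mouse 10 (adjusted p = 0.000262 by limma).

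Averaged over the 4 tested entries, muscle microRNAs covered 7.63 to 8.40 among CHR libraries, 3.32 to 5.60 among PAP libraries and 3.78 to 8.07 among cuSCC libraries, where the lowest was that of mouse 10. In PAP against CHR, 3 of the 4 were lower and 0 higher by limma, where 18.4% of all tested microRNAs were lower, with a median log2 fold change of -3.08 beside -0.23 over all tested microRNAs. With undetected values at the lowest detected value of the library, 1 of the 4 was lower. In cuSCC against CHR, miR-133a-3p alone was lower (22.2% of all tested), with a list median of -0.51 beside 0.11, and it did not pass without any one of mice 2, 3, 7, 8 and 9. For miR-206-3p and miR-133b-3p the differences of -0.59 and -0.42 did not pass (adjusted p = 0.507 and 0.579 by limma). Each exceeded the CHR value of its mouse in the cuSCC of mice 2, 7 and 9, and lay below it in mice 3, 8 and 10. None of the 4 was detected in the PAP of mice 3, 7 and 10, whose lowest detected values were 5.40, 6.72 and 6.83. The CHR means of miR-206-3p (6.54) and miR-133b-3p (6.26) lay below those of mice 7 and 10. miR-133a-5p, at most 4.44 in any library, lay below all of them, and the CHR mean of miR-133a-3p (15.63) lay above all. In 6 of 6 mice the miR-486-5p of PAP was at or above that of CHR. It exceeded the muscle mean by 9.09 ± 0.43 in CHR and by 13.78 ± 0.83 in PAP, a difference of 4.69 (SD, n = 6), in 6 of 6 mice. No p is given for it. The muscle mean fell from 8.03 in CHR to 3.89 in PAP while miR-486-5p differed by 0.55, so the difference largely restates that fall. Because most PAP muscle values lay at or near the lowest value, the difference of 4.69 shrank with other readings of low values. It was 2.84 with undetected values raised as above and 2.66 with 100 ppm as the lowest value. In cuSCC the excess was 7.82, 7.85, 7.73, 8.29 and 7.92 in mice 2, 3, 7, 8 and 9, all below the lowest CHR value of 8.49, and 14.06 in mouse 10. With all mice cuSCC differed from CHR by -0.14 (exact permutation test, adjusted p = 0.981 over 6 comparisons). Without mouse 10 the difference was -1.29, where miR-486-5p itself differed by -1.72. No p is given for it, since the value left out was the one that stood apart in this same excess. Within sample types, miR-486-5p and the muscle mean correlated at Pearson's r = 0.222 in CHR, 0.440 in PAP and -0.712 in cuSCC. The exact permutation p was 0.683, 0.383 and 0.158. Without the 2 libraries farthest from the median of miR-486-5p, r in cuSCC was 0.992. For miR-451a and the muscle mean r was 0.366, 0.0655 and -0.783 (exact permutation p = 0.489, 0.933 and 0.117). These r values do not measure the part of muscle in the levels of miR-486, which was not tested.

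**Figure D5:**
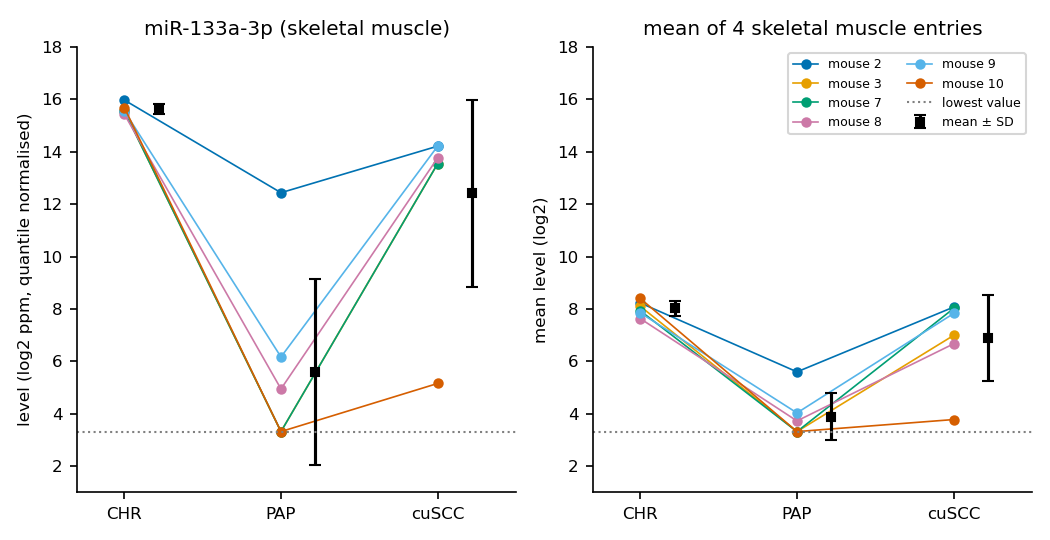
Level of miR-133a-3p (left, log2 ppm, quantile normalised) and mean level of the 4 tested skeletal muscle entries (right), with 1 line per mouse, squares for the mean ± SD (n = 6) and a dotted line at the lowest value. miR-133a-3p is high in CHR and intermediate in the cuSCC of all mice but mouse 10. It is at or near the lowest value in most PAP libraries and low in the cuSCC of mouse 10. The mean is low in the same libraries, and its values in the other cuSCC libraries overlap those of CHR.

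Other microRNAs known to be abundant in red cells were read from a list of 16, of which 14 were tested. Most of them are also made by many other cells, skin included, and miR-182, miR-183 and miR-96 are epithelial as well. In PAP against CHR, 7 of the 14 were higher and 0 lower by limma, with a median log2 fold change of 0.95, beside 14.0% higher and a median of -0.23 over all tested microRNAs. In cuSCC against CHR, 8 were higher and 0 lower, with a median of 0.98, beside 20.1% and 0.11. In cuSCC against PAP 1 was higher and 0 lower, with a median of -0.18, beside 9.22% and 0.21. With each mouse left out, 4 to 6 and 6 to 9 entries were higher than in CHR in PAP and cuSCC, the fewest in PAP without mouse 3, 7, 8 or 9. The list averaged 9.82 to 10.51 over the CHR libraries, 10.92 to 11.40 over PAP and 10.95 to 11.76 over cuSCC. The most abundant were miR-191-5p, miR-92a-3p and miR-182-5p. miR-92a-3p, from the miR-17-92 cluster, rose by 1.13 in PAP (adjusted p = 0.00938 by limma), and its difference of 0.49 in cuSCC did not pass (adjusted p = 0.255 by limma). miR-182-5p was higher by 1.76 in PAP (adjusted p = 0.000292 by limma) and 1.59 in cuSCC (adjusted p = 0.000747 by limma). miR-191-5p was within the spread, at -0.51 in PAP (adjusted p = 0.233 by limma) and -0.73 in cuSCC (adjusted p = 0.154 by limma).

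Blood also brings white cells and platelets, and vessels bring endothelium. Of 9 leukocyte and platelet entries, 4 were tested, and in PAP against CHR 2 were lower and 0 higher by limma (median -2.34), where 18.4% of all tested microRNAs were lower. In cuSCC against CHR, 2 were lower and 1 higher (median -1.23), where 22.2% and 20.1% were. Without mouse 7 only 1 was lower in PAP, and without mouse 3 none was higher in cuSCC. miR-150-5p, a microRNA of mature lymphocytes, was lower than in CHR by a log2 difference of -2.62 in PAP (adjusted p = 0.000641 by limma) and -2.33 in cuSCC (adjusted p = 0.000927 by limma). For miR-342-3p the differences were -3.66 (adjusted p = 0.0248 by limma) and -2.86 (adjusted p = 0.000152 by limma). miR-142-5p, found across blood cells, was higher in cuSCC by 1.53 (adjusted p = 0.0132 by limma), and its difference of -1.01 in PAP did not pass (adjusted p = 0.113 by limma). Over the CHR libraries the list averaged 9.87 to 11.45, over PAP 5.63 to 9.57 and over cuSCC 8.72 to 10.54. Both endothelial arms, miR-126-3p and miR-126-5p, were higher in cuSCC than in CHR, by 1.40 (adjusted p = 0.00493 by limma) and 1.74 (adjusted p = 0.0132 by limma), though 1 of them did not pass without mouse 2, 3 or 8. In PAP neither passed, at -0.19 (adjusted p = 0.691 by limma) and -1.10 (adjusted p = 0.197 by limma). Their mean covered 6.63 to 8.27 among CHR libraries, 5.43 to 7.79 among PAP and 8.10 to 10.16 among cuSCC. miR-451a was thus higher in PAP and in cuSCC, and in both miR-150-5p and miR-342-3p were lower. The endothelial entries and miR-142-5p were higher in cuSCC and did not pass in PAP. The part of these cells in the level of miR-451a was not tested. Of the 9 epithelial entries, all tested, 5 were higher and 0 lower in PAP against CHR by limma (median 1.24), where 14.0% of all tested microRNAs were higher, and 4 higher and 0 lower in cuSCC against CHR (median 0.88), where 20.1% were higher. Without mouse 2 or without mouse 3, 1 of the 9 was higher in cuSCC.

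The entries most like the members were looked for among the other tested microRNAs, with each value centred on the mean of its sample type, over 18 libraries that share mice and normalisation. Nearest to miR-451a were miR-25-3p (r = 0.728), miR-5617-3p (0.704), miR-98-5p (0.701), miR-107-3p (0.699) and miR-93-5p (0.666). Nearest to miR-486-5p were miR-25-3p (r = 0.807), miR-106b-3p (0.682), miR-93-5p (0.665), miR-5617-3p (0.646) and miR-6243 (0.544). Centred in the same way, miR-451a and miR-486-5p correlated at r = 0.675 and the arms of miR-486 at r = 0.897. miR-25, miR-93 and miR-106b come from one cluster in an intron of Mcm7, and miR-25-3p, miR-93-5p and miR-107-3p were on the red cell list. miR-25-3p, the nearest to both, stood at 12.07 ± 0.37 in CHR, 13.47 ± 0.61 in PAP and 12.99 ± 0.51 in cuSCC (SD, n = 6), so that its means, like those of miR-451a, were highest in PAP and lowest in CHR. miR-5617-3p was detected in 8 of the 18 libraries. These r values describe the 18 libraries and were not tested.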

How the data were processed

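Total RNA from 18 tissue pieces was made into small RNA libraries for Illumina sequencing. The authors trimmed adapters, removed very short reads and reads that end in homopolymers, used BLAST against miRBase, and expressed abundance in ppm of usable reads. The deposited values are log2 ppm. Their quantile normalisation between libraries and the lowest value of 10 ppm were read from the values, and the BLAST settings and the sharing of reads between near-identical entries are not given in the sources used here. The submitters' notes name mm10, the UCSC name of GRCm38.

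Entries that exceeded the lowest value in 6 or more libraries were compared between pairs of sample types with limma 3.58.1 in R 4.3.3, without a mouse block, two-sided, with Benjamini-Hochberg adjustment over all 293 entries and a threshold of 0.05. limma stood in for the plain test of the study's methods. Differences within libraries and correlations within types were tested with exact permutations (Python 3.11.15, numpy 2.4.6, scipy 1.17.1, pandas 2.3.3; plots with matplotlib 3.10.9). limma and the exact tests were tested on simulated data. Hairpins were placed with the GENCODE annotation of GRCm38.

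The 7 members are all described. Of each list at most the 3 tested entries with the highest mean, and the 5 entries most like miR-451a and miR-486-5p, were named; other list members are named only to say which were tested or undetected. The members, lists and this rule were chosen with earlier results of these data known. Alternatives were other filters, 1 fit of all libraries, mouse as a replicate block, centring, other treatments of low values, removal of miR-3107, other tests and leaving out each mouse. Their use on the marker lists and miR-133a-3p was added after seeing the data.

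The number in a sample's label is that of its mouse, so the 3 samples of a number are paired. Deviations from type means correlated within mice at r = 0.025 (PAP and CHR), -0.0676 (cuSCC and CHR) and 0.0582 (cuSCC and PAP) on average. These averages over all tested entries do not describe each member. For miR-451a the mouse block lowered the SE from 0.87 to 0.59, from 0.73 to 0.48 and from 0.90 to 0.54, in the same order. Mouse 10 had the highest miR-451a of each sample type.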

Additional observations from a re-analysis of the deposited data

Results flagged for a closer look

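Each group of 6 libraries was examined for 1 library far from the rest (gap to its neighbour over 0.625 of the range of the group). Chance alone gives this in about 1 in 20 groups of independent, normally distributed values. Values tied at the lowest value do not follow that rate, and miR-144-5p was detected in only 2 of 6 cuSCC libraries. The 22 groups examined overlap, as several hold the same reads. In 6 of them a library stood apart, in each case the cuSCC of mouse 10. They were 5.16 for miR-144-5p, 17.84 for miR-486-5p and for its copy miR-3107-5p, 8.52 for miR-486-3p and for miR-3107-3p, and 14.06 for the excess of miR-486-5p over the muscle mean. In the same library the mean of the muscle entries was 3.78, against 6.67 to 8.07 in the other cuSCC libraries, and miR-451a was 12.27, against 8.05 to 10.14. The miR-451a of mouse 10 was also the highest of its type in CHR (7.44) and in PAP (12.50). The part of tissue makeup in these values was not tested.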

How the results depend on the processing

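miR-451a was higher in PAP and in cuSCC than in CHR, past the threshold, under every alternative run, with log2 fold changes of 3.51 to 5.35 and 2.73 to 4.39.

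The fall of miR-486-5p in cuSCC was less stable. Of 5 tested members, the number called in cuSCC against CHR was 3 in place of 5 without a filter (6 members tested), with the exact permutation test and with the unmoderated linear model, 3 of 3 without the miR-3107 entries, and 3 to 5 with each mouse left out. Against PAP it was 0 in place of 2 without a filter, with the exact permutation test and with the unmoderated model, 1 of 3 without miR-3107, 4 with each undetected value raised to the lowest one detected in that library, and 0 to 2 with each mouse left out, the 2 being reached only without mouse 10. At an unadjusted p under 0.05 and a fold of 1.5, 2 of the members were lower by the exact test. Across all tested microRNAs this comparison gave 34 calls with limma, 0 with the exact test (70 at that unadjusted p and fold), 6 with the unmoderated model and 1 to 59 with each mouse left out. Raising undetected values in this way gave 18 higher and 62 lower calls in place of 27 and 7, and moved the median difference of all entries from -0.23, 0.11 and 0.21 (PAP and cuSCC against CHR, cuSCC against PAP) to 0.44, -0.04 and -0.48. In PAP against CHR it gave 63 higher and 37 lower calls in place of 41 and 54. The replicate block changed no call of a member, and gave 77, 110 and 24 calls over all entries in place of 95, 124 and 34. The excess of miR-486-5p over the muscle mean in cuSCC against CHR ranged from -1.29 to 0.18 with each mouse left out, and was positive without mouse 2 (0.18), 3 (0.07), 7 (0.03), 8 (0.08) or 9 (0.05). Against PAP, where most muscle values lay at or near the lowest value, it ranged from -5.71 to -4.39 and is given with no p.

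Of the 9 epithelial entries, 2 in place of 4 were higher in cuSCC than in CHR without a filter and with the unmoderated model.

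The comparisons of miR-144-3p with miR-451a could not be made, because miR-144-3p was not detected. Values under about 100 ppm are limited by the lowest detected value of each library, and the depth of single libraries is not known here.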

Other observations

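Several other microRNAs with a known place in muscle, leukocytes or red cells were at or near the lowest value in libraries in which a partner was detected. miR-142-3p was detected in 2 of 18 libraries and miR-142-5p in 18, miR-1a-3p in 1 and miR-133a-3p in 15, and miR-155-5p and miR-363-3p in 0. These values are given without explanation.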
